A study of Arabidopsis thaliana with 24 samples.

Results

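In local leaves of Arabidopsis thaliana Col-0 plants, 88 of 32833 genes had transcript levels that were high before light stress where a drop of diphenyleneiodonium (DPI) had been placed between the local and the systemic leaf, and low in local leaves of DPI-treated plants exposed to light stress. DPI is an inhibitor of flavin-containing enzymes, including the NADPH oxidases, which release reactive oxygen species (ROS) into the cell wall space. The 88 genes were chosen by a rule on the local leaf. Their mean level over the 3 DPI control local libraries was at least 20 normalized counts, their mean log2(normalized count + 1) was more than 2 higher in DPI control than in water control local leaves, and it was more than 2 lower in DPI high light than in DPI control local leaves. A normalized count is a gene's read number after division by a size factor, which corrects for the depth of the library. Another 4 genes met the same thresholds (PR1, PAD3, LTP3 and LTP4) and were left out by the rule, so that 92 met them in all. Of the 88 genes, 86 code for proteins and 2 (AT5G24206 and AT3G15536) do not, and all 88 passed the filter on low values that was applied before testing. Within the systemic leaf alone, 77 of the 88 had at least 10 normalized counts in at least 3 libraries.

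The plants were wild type Col, 4 to 5 weeks old, kept at 23°C under short days (8 h light, 16 h dark) with a light intensity of 50 µmol m−2 s−1. Each plant received a drop of 0.3% agarose, holding either water or 50 mM DPI, at the midpoint of the path from a local to a systemic leaf, 15 min before the stress began. In the high light groups the local leaf was then exposed to 2000 µmol m−2 s−1 for 8 min, and in the control groups it was not. The 8 groups therefore cross the drop (water or DPI), the light (control or high light) and the leaf sampled (local or systemic), with 3 libraries each and 24 in all. A replicate was a pool of leaves from many plants of 1 repeat of the experiment, and both leaves of a plant were taken, so that the local and systemic libraries of a group may share plants. The drop was meant to stop a wave of ROS that travels from the local to the systemic leaf. Leaves were frozen at 0 min (control) or 8 min of light, so that light and a further 8 min with the drop cannot be told apart. The libraries held 13492454 to 26913744 reads, and 20256 to 21324 genes were above 0 in each. A level of 3 reads corresponds to 2.00 to 4.27 normalized counts in a library, and this floor covers counting error only. Markers of leaf mesophyll were high in every library and root markers summed to at most 3.06 normalized counts. The sum of the 3 mesophyll markers was lower under DPI, at 0.805 of the water level in control local leaves and 0.819 in control systemic leaves, and 0.923 and 0.839 in the high light leaves. In control local leaves the DPI sums were also at 0.846 of the water level for 3 epidermis markers and 0.889 for 3 guard cell markers, and at 1.15 for 2 companion cell markers, while in control systemic leaves these ratios were 0.973, 1.00 and 0.959. With light under water, epidermis sums in local leaves went from 12042 to 12192 down to 8462 to 8779 normalized counts and guard cell sums from 934 to 1074 down to 719 to 750, without overlap. Companion cell sums there rose from 6517 to 6701 up to 7863 to 8391. Mesophyll sums fell from 888392 to 1010221 down to 857025 to 887552. With light under DPI, local epidermis sums went from 10079 to 10443 down to 8873 to 9074 and guard cell sums from 852 to 945 down to 642 to 698. Companion cell sums rose from 7341 to 7811 up to 8314 to 8989, and mesophyll sums overlapped. The part of these markers in the results below was not tested. These sums are levels of marker transcripts after minutes of the drop and the light. They are not counts of cells, and the reason for their shifts was not tested.

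Salicylic acid and N-hydroxypipecolic acid are the signals of systemic acquired resistance, the state in which leaves away from an infection become more resistant. ALD1 and FMO1 catalyse steps from lysine to N-hydroxypipecolic acid, PBS3 acts in the synthesis of salicylic acid from isochorismate, and UGT76B1 attaches glucose to these signals. Downstream of them stand the coactivator NPR1 with its NIMIN partners, WRKY transcription factors, and secreted pathogenesis-related proteins such as the glucanase PR2, named BGL2 in the annotation. Receptor-like kinases and receptor-like proteins at the cell surface detect microbial molecules, and cytochrome P450, glutathione transferase and glycosyltransferase enzymes make or modify defence compounds such as camalexin.

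WRKY factors bind the W-box, whose core is TTGAC. The 300 bases before the annotated gene start were read for the 86 protein-coding members and for 27443 protein-coding genes in all, from the RefSeq TAIR10.1 sequence and annotation. The core TTGAC was found on either strand in 66 of the 86 windows (76.7%) and in 50.4% of all windows, and at least 2 copies were found in 39 windows (45.3%) and in 17.9% of all. The core of the as-1 element, TGACG, can overlap with TTGAC as TTGACG and was in 44.2% of the members' windows and 21.3% of all. The heat shock element core GAANNTTC was in 23.3% and 11.5%, and the core of the abscisic acid element, ACGTG, which also lies inside the G-box CACGTG, was in 38.4% and 25.6%. The G-box was in 8.14% and 7.09%, and the GCC box GCCGCC in 0 windows of members and 2.26% of all. A match is a description of the letters and not a binding site, and windows can reach into a neighbouring gene.

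**Figure D1:**
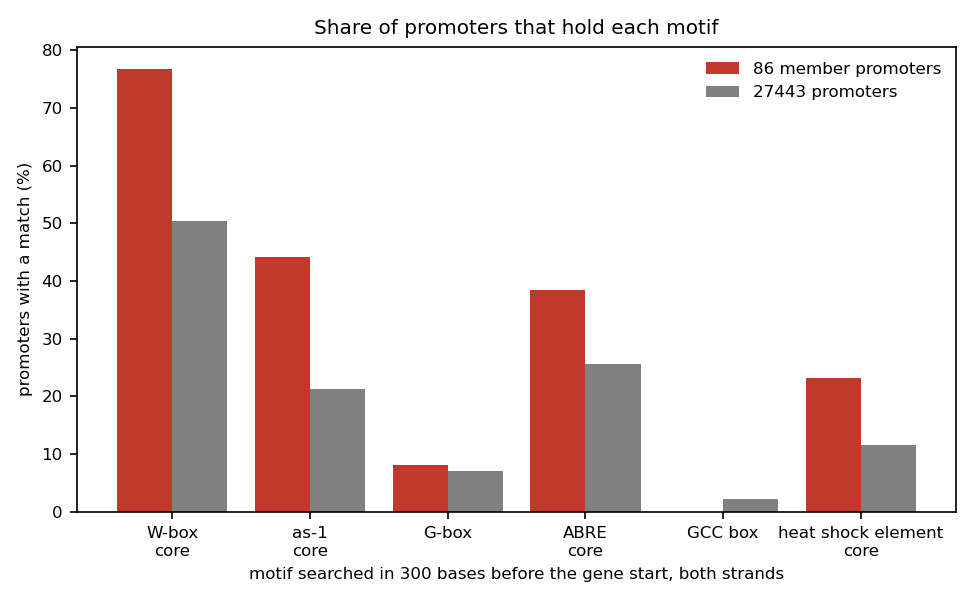
Share of promoter windows (%, y axis) that hold at least 1 match to each of 6 motifs (x axis), for the 86 protein-coding members (red) and for all 27443 protein-coding genes (grey). The W-box core was in 76.7% of the members' windows against 50.4% of all.

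The members with most copies of the core, 4 each, were AT1G26420 (a berberine bridge enzyme-like oxidase), the leucine-rich repeat kinase genes AT1G51860 and AT1G51890, and SDR3 (a dehydrogenase). Their windows are shown to let the spacing of the copies be seen, beside that of FMO1, in which these letters do not occur. Each is written 5′ to 3′ on the strand of the gene and ends next to the gene start, and capitals mark TTGAC or its reverse complement GTCAA. All 5 genes are on the minus strand of TAIR10.1.
AT1G26420 (chr1:9143337-9143636): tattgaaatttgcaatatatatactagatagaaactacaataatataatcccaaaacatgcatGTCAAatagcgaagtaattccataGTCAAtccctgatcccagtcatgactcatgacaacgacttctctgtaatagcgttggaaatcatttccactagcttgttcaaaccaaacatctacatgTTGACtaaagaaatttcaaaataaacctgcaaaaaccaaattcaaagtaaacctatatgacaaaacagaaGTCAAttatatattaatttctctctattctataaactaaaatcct
AT1G51860 (chr1:19261795-19262094): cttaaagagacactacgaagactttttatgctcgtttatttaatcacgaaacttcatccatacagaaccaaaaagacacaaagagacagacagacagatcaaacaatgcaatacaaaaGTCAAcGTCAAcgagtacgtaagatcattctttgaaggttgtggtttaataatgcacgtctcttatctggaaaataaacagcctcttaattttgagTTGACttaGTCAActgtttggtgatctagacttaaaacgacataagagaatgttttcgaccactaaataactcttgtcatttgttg
AT1G51890 (chr1:19278799-19279098): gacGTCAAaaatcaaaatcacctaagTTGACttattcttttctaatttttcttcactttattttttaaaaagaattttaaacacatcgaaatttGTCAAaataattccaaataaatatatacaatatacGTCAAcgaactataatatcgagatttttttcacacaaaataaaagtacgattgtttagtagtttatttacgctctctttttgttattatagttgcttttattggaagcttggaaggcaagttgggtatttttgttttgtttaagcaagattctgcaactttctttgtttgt
SDR3 (chr2:19350651-19350950): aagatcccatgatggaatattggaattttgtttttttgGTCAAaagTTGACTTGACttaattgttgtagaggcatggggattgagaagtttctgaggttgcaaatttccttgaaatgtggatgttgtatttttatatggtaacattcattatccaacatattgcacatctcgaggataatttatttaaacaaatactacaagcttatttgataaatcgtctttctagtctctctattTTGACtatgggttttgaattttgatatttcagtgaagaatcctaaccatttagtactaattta
FMO1 (chr1:6653196-6653495): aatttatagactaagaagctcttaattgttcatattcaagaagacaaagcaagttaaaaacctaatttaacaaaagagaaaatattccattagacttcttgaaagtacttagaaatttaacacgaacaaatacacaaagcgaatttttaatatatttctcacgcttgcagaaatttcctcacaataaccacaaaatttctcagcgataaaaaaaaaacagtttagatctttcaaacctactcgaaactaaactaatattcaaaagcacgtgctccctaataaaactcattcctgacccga

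Some members lay close together in the genome. This is a description, since the share over all genes was not counted. In 9 places, 2 or 3 of them lay within 5 protein-coding genes of each other: GSTF7 with GSTF6, WAK3 with EXT3, AT1G26390 with AT1G26420, AT1G51860 with AT1G51890, RLP39 with RLP41, BG3 with BGL2, CRK36 with CRK37 and CRK38, MSRB8 with MSRB9, and CRK6 with CRK7. Of the 88, only PNP-A shared stretches of at least 75 exon bases at 95% identity or more with another gene (29.2% of its exon bases, with PAL4), so that its level is uncertain. Levels of EXT3, CYP71A13, RLP41, LHT7 and AT5G45000 are uncertain as well, since 483 to 636 bases of each overlap a gene on the opposite strand and the use of strand in counting is not given in the sources used here. Another 11 members overlapped a neighbour by 6 to 189 bases (AT1G44130, FRK1, RLP23, NAC042, AT3G13610, RLP39, CYP81D11, AT4G00700, GLR2.5, AT5G38900 and AT5G51465).

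The local leaf was the tissue on which the genes were chosen, and its values are given as a description with no test. Over the 88 genes, the log2 difference of DPI control from water control local leaves ranged from 2.00 to 5.09 with a median of 2.81, and that of DPI high light from DPI control ran from -6.17 to -2.003 with a median of -2.94. The median log2 difference of DPI high light from water control local leaves was -0.10 (range -2.19 to 1.58). All 3 DPI high light libraries lay above all 3 water control libraries for 9 members and below them for 13, whereas 28.1% and 26.3% of all tested genes did so. For 10 members in water control and 12 in DPI high light local leaves, no library exceeded the floor, and a fold against them is given as a lower bound. With such genes at their bound, the medians were 2.81 and -2.82.

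Under water the difference with light had the opposite sign. The level was higher in water high light than in water control local leaves for 86 of the 88 genes, and all 3 libraries lay above all 3 for 72 of them, where 22.3% of all tested genes did so. The median log2 difference was 1.40 (range -0.18 to 3.29), against -0.0003 over all 18314 tested genes. This comparison shares its water control libraries with the rule, which prefers genes that are low in them, so that it is no independent result. NIMIN-2 and the glutamate receptor-like channel gene ATGLR1.2 were the exceptions, at -0.18 and -0.12. Water high light leaves stayed below DPI control leaves, with all 3 libraries below all 3 for 83 members (25.7% of all tested genes) and a median of -1.46. BG3 alone had a higher mean log2 level in water high light, by 0.15. Between the stressed leaves, all 3 DPI libraries lay below all 3 water libraries for 70 of the 88 (23.9% of all tested genes), with a median of -1.54. The rule asks for high levels in DPI control and low levels in DPI high light local leaves, so that both of these counts are descriptions and nothing is read from them.

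**Figure D2:**
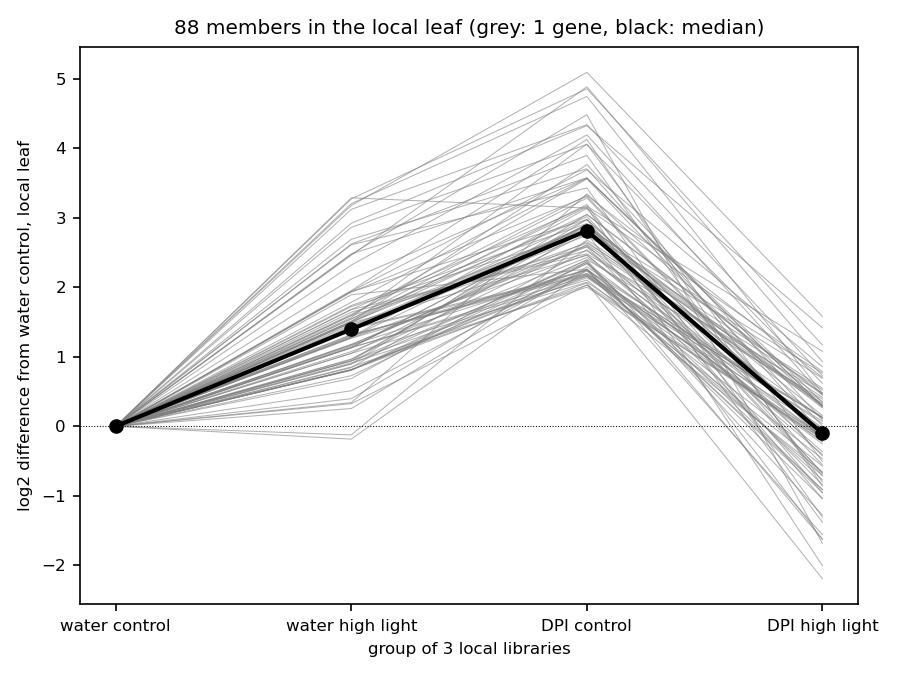
Mean log2(normalized count + 1) of each of the 88 members in the 4 local groups (x axis), as the difference from water control (y axis), with 1 grey line for each gene and the median in black. The median rises to 1.40 in water high light and 2.81 in DPI control and is at -0.10 in DPI high light.

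The number of genes that met the rule depended on its settings. Leaving out 1 of the 9 local libraries that the rule used gave 81 to 89 genes, of which 80 to 85 were among the 88, and rescaling by trimmed means (TMM) gave the same 88. A pseudocount of 5 in place of 1 gave 60, all among the 88. Just inside the level threshold were AT5G24206 at 20.05, BAP2 at 20.4 and AT2G44240 at 20.4 normalized counts, and just outside KOR2 at 19.3, AT3G61198 at 18.6 and ABO3 at 18.6. For the rise, CRK36 (2.00), AT3G51440 (2.03) and RLP52 (2.03) were just inside and AT1G54575 (1.98), CRK23 (1.95) and CYP71B23 (1.90) just outside. For the fall, AT5G45000 (-2.003), PBS3 (-2.01) and GSTF6 (-2.04) were just inside and AT3G47480 (-1.99), LURP1 (-1.98) and WRKY62 (-1.95) just outside.

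The systemic leaf, which was not itself exposed to the high light, was not used to choose the genes, so that its 12 libraries allow tests. The drop lay at the midpoint between the leaves and so on neither of them. The tests are not fully separate from the choice, since the spread is estimated from all 24 libraries. Some members also passed the filter on low values only with the help of their local levels. The local and systemic libraries of a group may also share plants. In control plants, 36 of the 88 members were higher in DPI than in water systemic leaves and 0 were lower (limma, adjusted p under 0.05), where 20.7% of all tested genes were called higher and 18.8% lower. The median log2 difference was 0.52 (range -0.91 to 5.38), against 0.0045 over all tested genes, and 81 of the 88 were above 0. At an unadjusted p under 0.05, 43 were higher and 0 lower, and edgeR and DESeq2 also called 0 lower. All 3 DPI libraries lay above all 3 water libraries for 43 members (25.3% of all tested genes) and below for 1 (23.8%). The call was lost on leaving out at least 1 of the 6 libraries for 15 of the 36 (ALD1, AT3G13950, AT3G28580, AT4G14390, AT5G38250, AT5G45000, BAP2, CRK36, CRK7, GSTF6, LUP5, MDHAR, MSRB9, NIMIN-2 and PBS3, with the highest adjusted p between 0.0571 and 0.176), and 21 kept it. The number fell most without DPI control replicate 2, to 26.

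With light under DPI, 40 members were lower in systemic leaves of DPI high light than of DPI control plants and 1 (TAT3) was higher, where 4.56% of all tested genes were called lower and 7.15% higher. The median was -0.75 (range -2.93 to 0.95) against -0.0047 over all tested genes, and 84 of the 88 were below 0. All 3 high light libraries lay below all 3 control libraries for 60 members (12.7% of all tested genes) and above for 2 (14.4%). Of the 41 calls, 29 were kept without any 1 library, and 12 were lost without at least 1 (AT1G13470, AT2G45220, BGL2, CHI, CRK38, CYP71A13, MSRB9, RLP7, SDR3, UGT76B1, VSR6 and WRKY51, with the highest adjusted p between 0.0605 and 0.25). Both comparisons use the DPI control systemic libraries, so that the 24 members called higher in the first and lower in the second are not independent counts. A further 12 were higher in the first and not lower in the second (TAT3, higher in both, is among them), and 16 were lower in the second and not called in the first. With genes under the floor at their bounds, both medians were the same.

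With light under water, the systemic leaf had calls in both directions. There, 8 members were higher in water high light than in water control plants (AT1G26390, AT1G51860, AT2G45220, BG3, CYP81D11, MDHAR, SAG13 and TAT3) and 7 were lower (AIG1, ALD1, ARD3, AT3G13610, BIP3, CRK37 and UGT76B1), where 7.66% of all tested genes were called higher and 3.1% lower. The median was -0.01 (range -2.12 to 2.71), and 43 of the 88 were above 0. The number called higher fell to 5 without water control replicate 1, to 4 without water high light replicate 1 and to 5 without water high light replicate 2. Calls lost without at least 1 library were those of ALD1, AT1G51860, AT2G45220, BIP3, CRK37, MDHAR and SAG13 (highest adjusted p between 0.0897 and 0.523).

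The response to light differed between the drops for 28 members by the drop by light interaction. It was more negative under DPI than under water for 26, where 4.08% of all tested genes were so called, and more positive for UGT76B1 and ARD3, where 2.32% were. The median interaction was -0.65 (range -4.83 to 1.28) against -0.0096 over all tested genes, and 77 of the 88 were below 0. The 26 were ABCG40, AT1G13470, AT1G26390, AT1G51860, AT2G45220, AT3G13950, AT3G15536, AT3G22600, AT3G28580, AT4G14390, AT5G10760, AT5G38250, BG3, BGL2, CHI, CRK6, CYP81D11, EXT3, FMO1, GSTF6, GSTF7, PBS3, RLP23, SAG13, SDR3 and WAK3. Of the 28 calls, 15 were kept without any 1 of the 12 libraries, and 13 were lost without at least 1 (ARD3, AT1G13470, AT1G51860, AT3G13950, AT4G14390, AT5G38250, BGL2, CHI, CRK6, GSTF6, SDR3, UGT76B1 and WAK3, with the highest adjusted p between 0.0572 and 0.204). The number more positive fell to 0 without water control replicate 3, water high light replicate 3, DPI control replicate 1 or DPI high light replicate 1. For 19 members the rise with DPI, the fall with light under DPI and the negative interaction all passed. No call was made in any of the 4 systemic comparisons for 34 members. Some members were low in the systemic leaf, where 77 of the 88 had at least 10 normalized counts in at least 3 libraries. The others passed the filter at least partly through their local levels. Any calls they had, such as that of CYP71A13, are in the counts above, and no count without them was made. For such low genes a missing call does not show an unchanged level.

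**Figure D3:**
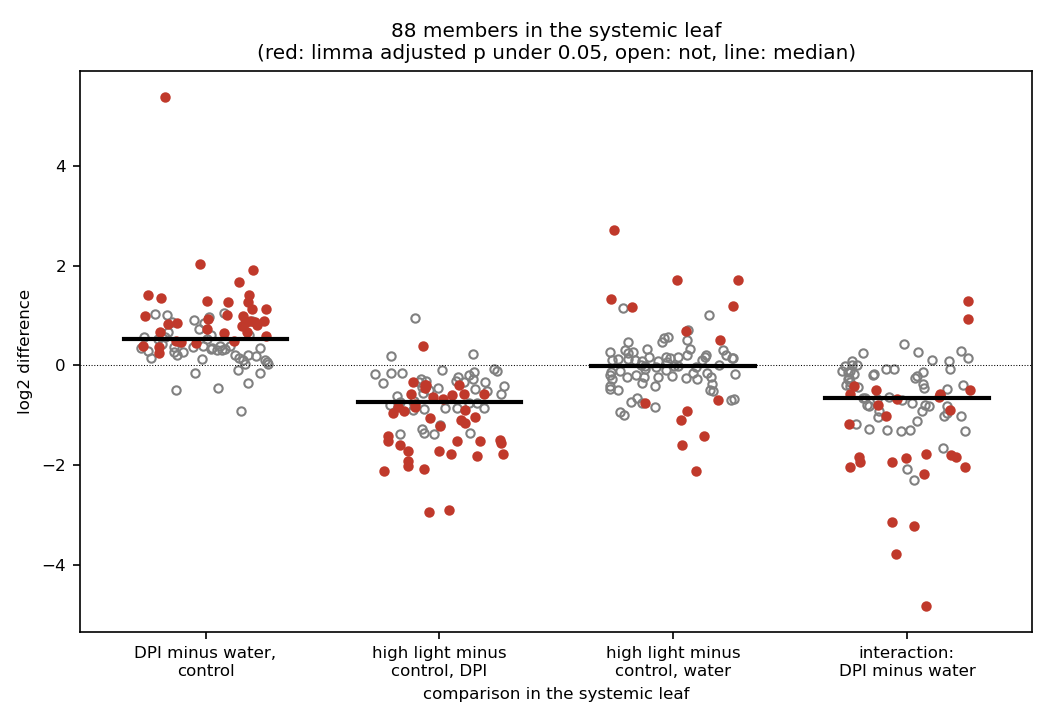
Log2 difference (y axis) of each of the 88 members in 4 comparisons within the systemic leaf (x axis), with calls at a limma adjusted p under 0.05 in red, others open, and the median as a line. The medians are 0.52 for DPI against water, -0.75 for light under DPI, -0.01 for light under water and -0.65 for the interaction.

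The members are described next by the role of their products, in 6 groups made with their values known. The background of each group's systemic counts is the share of all tested genes. It was 20.7% for a rise with DPI, 4.56% for a fall with light under DPI and 4.08% for a negative interaction. The 9 genes of salicylic acid and pipecolic acid signalling had a median local log2 difference of 2.91 for DPI and -3.29 for light under DPI. In the systemic leaf 5 of them rose with DPI (ALD1, AT4G10500, NIMIN-2, PBS3 and WRKY38) and 5 fell with light under DPI (ALD1, FMO1, PBS3, UGT76B1 and WRKY51).

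FMO1 was present in DPI control local leaves at 81.6, 54.8 and 79.6 normalized counts and was at 0 in all 3 DPI high light local libraries. Water control local leaves held 3.02, 0.939 and 3.26 and water high light leaves 17.5, 14.6 and 18.9. The DPI control libraries lay above all others, and the fall after light was at least 20.5-fold against the floor. FMO1 in the systemic leaf stood at 14.4, 2.21 and 8.69 in water control, 7.7, 3.23 and 19.2 in water high light, 14.9, 12.4 and 13.9 in DPI control and 2.98, 0 and 0.8 in DPI high light. The DPI high light libraries were at or under the floor, at least 4.76-fold below DPI control, while the water libraries spread widely and overlapped with DPI control. The fitted fall with light under DPI passed the test (log2 difference of -2.93 ± 0.53 SE, adjusted p = 5.99e-05), as did the interaction (log2 difference of -3.14 ± 0.75 SE, adjusted p = 0.0047), and the rise with DPI did not (log2 difference of 0.91 ± 0.53 SE, adjusted p = 0.179).

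ALD1, the aminotransferase upstream of FMO1, is next. Its local levels were 6.05, 4.7 and 8.15 in water control, 26.2, 37.5 and 42.6 in water high light, 122, 134 and 134 in DPI control and 11.4, 9.69 and 6.06 in DPI high light. Its systemic levels were 7.78, 7.72 and 14.03 in water control, 4.4, 3.23 and 4.05 in water high light, 21.9, 19.8 and 24.4 in DPI control and 12.9, 2.19 and 4.00 in DPI high light. All 3 systemic DPI control libraries were above every other systemic library. ALD1 rose with DPI in the systemic leaf (log2 difference of 1.13 ± 0.37 SE, adjusted p = 0.0129), a call lost without water control replicate 1 or 2, and fell with light under DPI (log2 difference of -1.92 ± 0.37 SE, adjusted p = 0.000159). It also fell with light under water (log2 difference of -1.11 ± 0.37 SE, adjusted p = 0.0464), a call lost without any 1 of the 6 libraries, and the interaction was not called (log2 difference of -0.82 ± 0.52 SE, adjusted p = 0.476).

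PBS3 conjugates isochorismate with glutamate on the way to salicylic acid. Its local levels were 152, 104 and 103 in water control, 192, 224 and 207 in water high light, 623, 639 and 616 in DPI control and 115, 146 and 220.2 in DPI high light leaves, so that it lay just inside the threshold for the fall. Its systemic levels were 226, 196 and 201 in water control, 165, 187 and 164 in water high light, 262, 272 and 275 in DPI control and 149, 113 and 102 in DPI high light. The systemic DPI high light libraries were below all others and the DPI control libraries above all others. PBS3 fell with light under DPI (log2 difference of -1.17 ± 0.15 SE, adjusted p = 5.58e-08) and its interaction was negative (log2 difference of -0.90 ± 0.21 SE, adjusted p = 0.00313). Its rise with DPI (log2 difference of 0.38 ± 0.15 SE, adjusted p = 0.0344) was lost without water control replicate 2 or 3 or any DPI control replicate.

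UGT76B1, which glucosylates salicylic acid and N-hydroxypipecolic acid, had a positive interaction in the systemic leaf. Locally it was at 6.05, 10.3 and 8.96 in water control, 41.5, 67.6 and 44.4 in water high light, 244, 290.1 and 287 in DPI control and 17.1, 20.5 and 13.1 in DPI high light leaves. Systemic levels were 32.2, 31.997 and 48.1 in water control, 7.7, 9.7 and 6.08 in water high light, 21.9, 32.2 and 27.03 in DPI control and 17.9, 14.2 and 12.004 in DPI high light. Here water control had the highest mean, overlapping with DPI control, and the level fell with light under water (log2 difference of -2.12 ± 0.26 SE, adjusted p = 3.03e-08). It also fell with light under DPI (log2 difference of -0.84 ± 0.26 SE, adjusted p = 0.0244) and lost its call without DPI control or DPI high light replicate 2 or 3. The interaction was positive (log2 difference of 1.28 ± 0.36 SE, adjusted p = 0.0227) and was not called without water control replicate 3, water high light replicate 3, DPI control replicate 1 or DPI high light replicate 1 (adjusted p up to 0.0958).

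AT4G10500 codes for an oxygenase that hydroxylates salicylic acid (DLO1). It was locally at 103, 57.3 and 100.2 in water control, 174, 212 and 170.2 in water high light, 629, 621 and 663 in DPI control and 59.8, 49.5 and 48.5 in DPI high light. The systemic levels were 137, 167 and 154 in water control, 154, 140.1 and 124 in water high light, 216, 206 and 216 in DPI control and 178, 152 and 151 in DPI high light. AT4G10500 rose with DPI (log2 difference of 0.48 ± 0.14 SE, adjusted p = 0.00512), and the fall with light under DPI missed the threshold (log2 difference of -0.41 ± 0.14 SE, adjusted p = 0.0513).

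WRKY38, a transcription factor of basal defence, was called with DPI and not with light. It was at 13.1, 9.39 and 6.52 in water control, 55.7, 33.3 and 45.4 in water high light, 126, 131 and 110.2 in DPI control and 7.12, 11.8 and 18.2 in DPI high light local leaves. The systemic leaf held it at 32.2, 28.7 and 19.4 in water control, 44.02, 35.6 and 37.5 in water high light, 61.6, 63.6 and 67.1 in DPI control and 61.7, 61.2 and 56.8 in DPI high light. Both DPI groups lay above both water groups. WRKY38 rose with DPI (log2 difference of 1.26 ± 0.25 SE, adjusted p = 7.67e-05) and the difference with light under DPI was -0.10 ± 0.25 (SE). WRKY51 fell with light under DPI (log2 difference of -1.22 ± 0.34 SE, adjusted p = 0.0118), a call lost without DPI control replicate 2 or 3 or DPI high light replicate 3.

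NIMIN1 and NIMIN-2 code for proteins that bind NPR1. NIMIN1 was at 14.1, 15.02 and 10.6 in water control, 42.6, 39.5 and 29.3 in water high light, 77.04, 95.3 and 112 in DPI control and 25.6, 19.4 and 15.2 in DPI high light local leaves. Systemic levels were 29.99, 20.96 and 32.7 in water control, 15.4, 17.2 and 27.4 in water high light, 47.7, 37.98 and 34.9 in DPI control and 34.8, 27.3 and 20.01 in DPI high light plants. It passed no systemic test, with a log2 difference of 0.52 for DPI and -0.56 for light under DPI. NIMIN-2 rose with DPI (log2 difference of 0.66 ± 0.22 SE, adjusted p = 0.0166), a call lost without water control replicate 1 or DPI control replicate 2.

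A wider list of 20 genes of salicylic acid and systemic acquired resistance, 7 of them members, was counted beside the members. In the systemic leaf 15 of the 20 rose with DPI and 0 fell, with a median of 0.53, where 20.7% of all tested genes rose and 18.8% fell, and the 3 largest rises among the 13 non-members were those of EDS5 (0.73), SARD1 (0.72) and CBP60G (0.70), a transporter and a pair of transcription factors of salicylic acid synthesis. With light under DPI 1 rose and 8 fell (7.15% and 4.56% of all tested genes), of which 4 of the falls were members, and with light under water 5 rose and 2 fell (7.66% and 3.1%). The interaction was negative for 7 and positive for 0 (4.08% and 2.32%). These percentages are also the background of the other lists. In the local leaf, which the rule used for the 7 members, 13 of the 13 non-members were higher with DPI, 9 were lower and 2 higher with light under DPI, and 12 were higher with light under water, where 21.5%, 15.9%, 17.9% and 17.9% of all tested genes were so called. Genes that met the thresholds but were left out by the rule count as non-members, and the list was chosen with earlier results known. These local counts are therefore a description and nothing is read from them. The remaining lists overlapped with the members less. Of 7 tested camalexin genes (2 members), 5 rose with DPI in the systemic leaf, led among non-members by WRKY33 (log2 difference 1.19), CYP79B3 (0.59) and CYP79B2 (0.58), and 3 rose and 3 fell with light under DPI. Of 16 detoxification genes (3 members) 12 rose and 1 fell with DPI, led among non-members by UGT74E2 (2.57), GSTU24 (1.61) and GSTU1 (1.55), and 2 rose and 5 fell with light under DPI. Of 17 jasmonate and ethylene defence genes (1 member) 13 rose with DPI, led among non-members by VSP1 (3.13), JAZ7 (3.06) and VSP2 (3.04), and 8 rose and 2 fell with light under DPI. Of 16 abscisic acid, cold and lipid transfer genes (0 members) 11 rose and 1 fell with DPI, led by LTP3 (6.92), LTP4 (6.30) and LTP2 (1.82), and 7 rose and 3 fell with light under DPI. LTP3 and LTP4 met the thresholds of the rule and are not members only because it left them out. Of 5 starvation and senescence genes (1 member) 3 rose with DPI, among them ASN1 (1.31) and DIN10 (0.45), and 1 rose and 2 fell with light under DPI.

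The 14 genes of secreted and cell wall proteins include PCR1, a membrane protein gene that was counted with them. Of the 14, 7 rose with DPI in the systemic leaf, 7 fell with light under DPI and 7 had a negative interaction. BGL2, the glucanase PR2, is a marker of salicylic acid signalling. Its local levels were 425, 358 and 475 in water control, 997, 1144 and 944 in water high light, 1948, 2013 and 2009.7 in DPI control and 168, 119.5 and 138 in DPI high light leaves. DPI high light leaves were thus below all water control leaves, with a log2 difference of -1.56 between them. Levels in the systemic leaf were 572, 508 and 585 in water control, 650.3, 598 and 597 in water high light, 996, 1086 and 945 in DPI control and 862, 714 and 817 in DPI high light, and both DPI groups stayed above both water groups. BGL2 rose with DPI (log2 difference of 0.86 ± 0.09 SE, adjusted p = 1.77e-10) and fell with light under DPI (log2 difference of -0.34 ± 0.09 SE, adjusted p = 0.00637), a call lost without DPI control or DPI high light replicate 2. Its interaction was negative (log2 difference of -0.49 ± 0.13 SE, adjusted p = 0.0103) and was not called without DPI high light replicate 2.

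Its neighbour BG3, another glucanase gene, was also called with light under water. It was at 4.03, 3.76 and 6.52 in water control, 45.9, 72.9 and 47.3 in water high light, 47.6, 49.7 and 48.99 in DPI control and 8.54, 9.69 and 8.08 in DPI high light local leaves. Its systemic levels were 14.4, 9.93 and 6.01 in water control, 25.3, 23.7 and 20.3 in water high light, 35.8, 38.8 and 41.8 in DPI control and 18.9, 24.1 and 24.8 in DPI high light. BG3 rose with DPI (log2 difference of 1.91 ± 0.28 SE, adjusted p = 3.19e-07) and with light under water (log2 difference of 1.18 ± 0.28 SE, adjusted p = 0.00222), its fall with light under DPI was not called (log2 difference of -0.76 ± 0.28 SE, adjusted p = 0.0687), and the interaction was negative (log2 difference of -1.94 ± 0.39 SE, adjusted p = 0.00067).

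PCR1, named for plant cadmium resistance, codes for a small membrane protein. It was at 439, 307 and 353 in water control, 1934, 2009.6 and 2137 in water high light, 3919, 4296 and 4815 in DPI control and 424, 463 and 498 in DPI high light local leaves. The systemic levels were 763, 736 and 771 in water control, 732, 678 and 713 in water high light, 916, 1075 and 1098 in DPI control and 904, 922 and 892 in DPI high light. PCR1 rose with DPI (log2 difference of 0.44 ± 0.08 SE, adjusted p = 1.51e-05), and the difference with light under DPI was -0.18 ± 0.08 (SE) and was not called. AT5G10760 codes for an apoplastic aspartyl protease (AED1). Its local levels were 573, 442 and 608 in water control, 1243, 1299.9 and 1336 in water high light, 2515, 2590.3 and 2552 in DPI control and 464, 427 and 492 in DPI high light, and its systemic levels 795, 776 and 816 in water control, 949, 918 and 828 in water high light, 1368, 1369 and 1472 in DPI control and 1002, 973 and 1081 in DPI high light. It rose with DPI (log2 difference of 0.82 ± 0.07 SE, adjusted p = 9.91e-13) and fell with light under DPI (log2 difference of -0.46 ± 0.07 SE, adjusted p = 2.59e-06), and the interaction was negative (log2 difference of -0.63 ± 0.10 SE, adjusted p = 1.13e-05).

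AT2G45220, a pectin methylesterase gene, was low in most libraries. It was at 1.01, 0 and 1.63 in water control, 7.65, 15.6 and 7.57 in water high light, 15.9, 24.3 and 39.8 in DPI control and 0 in each library in DPI high light local leaves. Both the rise, at least 9.66-fold, and the fall, at least 7.6-fold, are bounds against the floor. Systemic levels were 3.33, 1.1 and 10.02 in water control, 14.3, 14.01 and 14.2 in water high light, 11.9, 29.7 and 16.6 in DPI control and 4.97, 7.65 and 4.8 in DPI high light. It rose with DPI (log2 difference of 2.04 ± 0.50 SE, adjusted p = 0.00105) and with light under water (log2 difference of 1.71 ± 0.50 SE, adjusted p = 0.0195), and fell with light under DPI (log2 difference of -1.51 ± 0.50 SE, adjusted p = 0.0415). Each light call was lost without any of 5 of its 6 libraries, the exceptions being water control replicate 3 and DPI control replicate 1, and the adjusted p then reached 0.215 and 0.25. The rise with light under water was also not called with only the groups in the contrast (limma, adjusted p = 0.0563), with edgeR (0.0907) or with DESeq2 (0.104). The interaction kept its call without each library (log2 difference of -3.22 ± 0.71 SE, adjusted p = 0.00211).

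Of the other secreted and cell wall proteins, AT3G22600, a lipid transfer protein gene, rose with DPI by 1.28 and fell by 1.82 with light under DPI, both on the log2 scale. The chitinase gene CHI rose by 0.98 and fell by 0.63, the latter call lost without DPI control or DPI high light replicate 2. EXT3, an extensin gene, and PNP-A, a natriuretic peptide gene, fell with light under DPI, by 1.51 and by 0.90, and were not called with DPI. No systemic call was made for AGP5 (an arabinogalactan protein), XTH10 (a xyloglucan-modifying enzyme), cwINV6 (a fructan exohydrolase), the aspartyl protease gene AT1G44130 or AT2G44240. Their local rises ranged from 2.29 (AGP5) to 3.69 (XTH10).

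**Figure D4:**
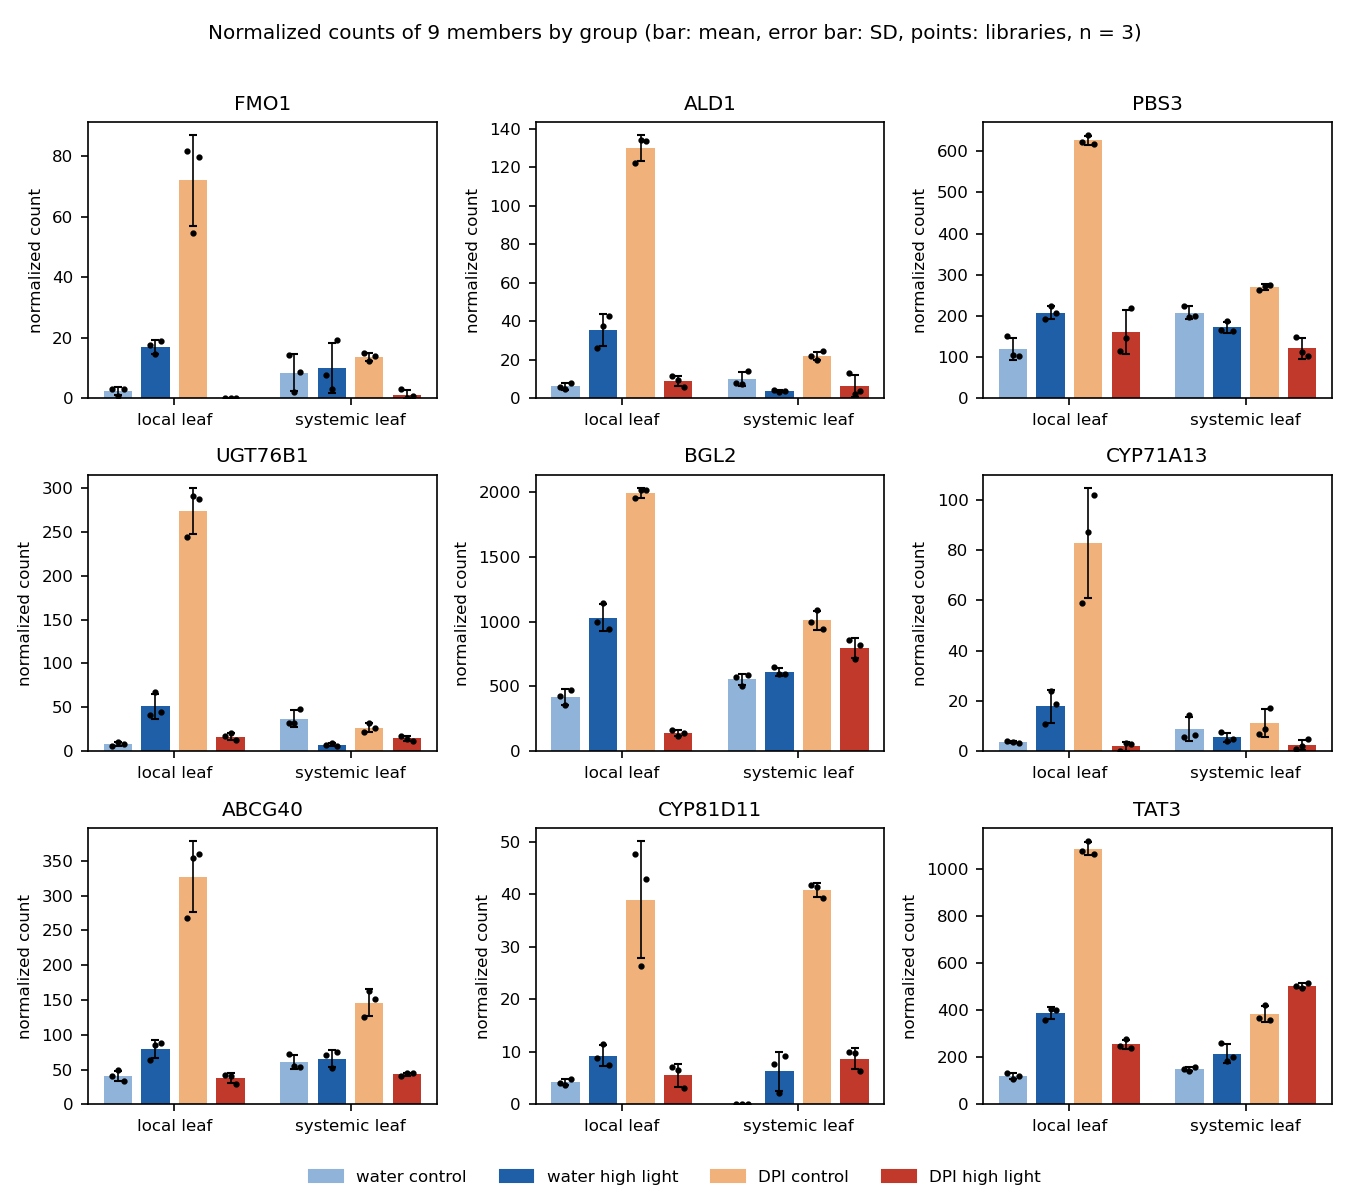
Normalized counts (y axis) of 9 members in the local and the systemic leaf (x axis), with a bar for the mean of each group, its SD as error bar and a point for each of the 3 libraries. DPI control has the highest mean in every local panel, and in the systemic leaf CYP81D11 is at 0 in all water control libraries while TAT3 is highest in DPI high light.

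The 19 receptor and kinase genes had local log2 rises from 2.00 to 3.31. Away from the stress, in systemic leaves, 7 rose with DPI (CRK6, CRK7, CRK36, RLP23, RLP41, AT5G38250 and AT5G45000) and 11 fell with light under DPI (CRK6, CRK7, CRK36, CRK37, CRK38, RLP7, RLP11, RLP23, RLP41, WAK3 and AT5G38250). RLP23, the receptor of a peptide of NLP toxins, rose with DPI by 0.78 and fell with light under DPI by 0.57 on the log2 scale. The call with DPI was lost for CRK36 without water control replicate 3 and for CRK7 without DPI control replicate 2. WAK3, a wall-associated kinase gene, fell with light under DPI by 1.42 and had a negative interaction of -1.01, which was lost without water high light replicate 1 or 3 or DPI control replicate 2 or 3. The kinase gene AT5G38250 fell by 1.60 after a rise of 1.00, the latter lost without water control or DPI control replicate 3. AT5G45000 codes for a protein of the TIR class of resistance proteins, and its rise was lost without water control replicate 2 or 3 or DPI control replicate 1 or 2. Calls with light under DPI were lost for RLP7 without any library but DPI high light replicate 3 and for CRK38 without replicate 2 or 3 of either group.

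FRK1, a receptor-like kinase gene induced by flagellin, is widely used as a marker of pattern-triggered immunity. It was at 7.05, 4.7 and 7.33 in water control, 29.5, 21.9 and 29.3 in water high light, 69.1, 70.99 and 72.5 in DPI control and 7.12, 4.31 and 5.05 in DPI high light local leaves. The systemic leaf held it at 12.2, 17.7 and 15.4 in water control, 18.7, 21.5 and 13.2 in water high light, 8.94, 8.26 and 14.8 in DPI control and 14.9, 10.9 and 10.4 in DPI high light, with overlapping groups. No systemic difference was called, and that with DPI was -0.49 ± 0.30 (SE). IOS1 and AT1G51890, which are leucine-rich repeat kinase genes, the receptor-like protein genes RLP39 and RLP52, and the kinase gene AT4G17660 also passed no systemic test. AT1G51860 was called only with light under water (log2 difference 1.32) and in the interaction (-2.17), and water control replicate 1, at 2.22 against 23.2 and 10.7 in the others, was far below them. The call with light under water was lost without water control replicate 1 or 3 or water high light replicate 1 or 2 (adjusted p up to 0.523). The interaction was not called without water control replicate 1, water high light replicate 1 or 2, DPI control replicate 1 or DPI high light replicate 3 (adjusted p up to 0.135).

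Among the 18 genes of indole, redox and detoxification enzymes, 9 rose with DPI in the systemic leaf and 10 fell with light under DPI. CYP71A13, a P450 of camalexin synthesis, was at 4.03, 3.76 and 3.26 in water control, 10.9, 23.9 and 18.9 in water high light, 58.9, 87.2 and 102 in DPI control and 0, 3.23 and 3.03 in DPI high light local leaves. The fall was at least 23.6-fold against the floor. Systemic levels were 5.55, 14.3 and 6.68 in water control, 7.7, 4.31 and 5.06 in water high light, 6.96, 9.08 and 17.4 in DPI control and 0.995, 2.19 and 4.8 in DPI high light. It fell with light under DPI (log2 difference of -1.78 ± 0.48 SE, adjusted p = 0.00867), a call lost without DPI control replicate 3 or DPI high light replicate 1, and the difference with DPI was 0.31 ± 0.48 (SE). CYP71A13 was low in the systemic leaf and passed the filter on low values only with the help of its local levels.

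The adjacent glutathione transferase genes GSTF6 and GSTF7 both fell with light under DPI. GSTF6, which takes part in camalexin synthesis, was at 273, 230.1 and 266 in water control, 649, 708 and 671 in water high light, 1137, 1156 and 1179.9 in DPI control and 312, 243 and 289 in DPI high light local leaves. Levels in the systemic leaf were 435, 533 and 455 in water control, 457, 415 and 388 in water high light, 529.6, 581 and 579 in DPI control and 411, 351 and 366 in DPI high light plants. GSTF7 was at 297, 241 and 259.9 in water control, 576, 579 and 591 in water high light, 1161, 1175 and 1222 in DPI control and 269, 295 and 274 in DPI high light local leaves. Its systemic levels were 478, 534 and 460.3 in water control, 465, 405 and 402 in water high light, 493, 552 and 536 in DPI control and 335, 294 and 292 in DPI high light plants. Both fell with light under DPI there, GSTF6 by 0.58 and GSTF7 by 0.78 (log2). The rise of GSTF6 with DPI (log2 difference of 0.25 ± 0.08 SE, adjusted p = 0.0114) was lost without water control replicate 1 or 3 or DPI control replicate 2. GSTU4, of another class of glutathione transferases, was at 1.01, 0.939 and 0.815 in water control, 7.65, 23.9 and 24.6 in water high light, 46.5, 46.7 and 59.2 in DPI control and 0, 2.15 and 5.05 in DPI high light local leaves. The systemic leaf held it at 4.44, 6.62 and 7.35 in water control, 3.3, 4.31 and 12.2 in water high light, 10.9, 16.5 and 13.1 in DPI control and 5.97, 2.19 and 6.4 in DPI high light plants, where it passed no test.

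CYP81D11, a P450 induced by foreign compounds, had the largest fitted log2 difference with DPI in the systemic leaf, a value that depends on the pseudocount. It was listed at 0 in all 3 water control systemic libraries, where water high light held 7.7, 2.15 and 9.12, DPI control 41.7, 41.3 and 39.2 and DPI high light 9.95, 9.84 and 6.4. DPI control was at least 14.1-fold higher than water control against the floor. The local levels were 4.03, 3.76 and 4.89 in water control, 8.75, 11.4 and 7.57 in water high light, 47.6, 26.4 and 42.9 in DPI control and 7.12, 6.46 and 3.03 in DPI high light. The local and systemic DPI control leaves overlapped. CYP81D11 rose with DPI (adjusted p = 4.14e-14, limma) and with light under water (adjusted p = 3.16e-06, at least 2.19-fold), and fell with light under DPI (log2 difference of -2.12 ± 0.41 SE, adjusted p = 0.000162).

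AT1G26390, a berberine bridge enzyme-like gene, was at 1.01, 1.88 and 1.63 in water control, 15.3, 17.7 and 10.4 in water high light, 15.9, 32.5 and 32.7 in DPI control and 0 in each library in DPI high light local leaves. The rise was at least 9.77-fold and the fall at least 7.69-fold against the floor. Systemic levels were 5.55, 5.52 and 6.01 in water control, 24.2, 19.4 and 19.2 in water high light, 12.9, 28.9 and 22.7 in DPI control and 1.99, 6.56 and 4.8 in DPI high light. It rose with DPI (log2 difference of 1.68 ± 0.41 SE, adjusted p = 0.00103) and with light under water (log2 difference of 1.71 ± 0.41 SE, adjusted p = 0.00326) and fell with light under DPI (log2 difference of -2.08 ± 0.41 SE, adjusted p = 0.000254). The interaction was negative (log2 difference of -3.78 ± 0.58 SE, adjusted p = 1.07e-05). AT1G26420, of the same family and nearby, passed no systemic test.

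AT3G13610 codes for the hydroxylase that leads to the coumarin scopoletin (F6'H1). It was at 2.02, 4.7 and 3.26 in water control, 36.1, 44.8 and 37.8 in water high light, 109, 125 and 128 in DPI control and 12.8, 7.54 and 6.06 in DPI high light local leaves. Systemic levels were 12.2, 16.6 and 15.4 in water control, 4.4, 3.23 and 5.06 in water high light, 14.9, 16.5 and 22.7 in DPI control and 3.98, 2.19 and 0 in DPI high light. With either drop, the high light libraries lay below the control libraries. It fell with light under DPI (log2 difference of -2.90 ± 0.39 SE, adjusted p = 3.64e-07) and under water (log2 difference of -1.59 ± 0.39 SE, adjusted p = 0.0042), and the interaction was not called (log2 difference of -1.31 ± 0.56 SE, adjusted p = 0.201). ARD3, an acireductone dioxygenase gene of methionine salvage, had a local log2 rise of 5.09. It was at 10.077, 13.1 and 13.9 in water control, 113, 118 and 127 in water high light, 443, 450.3 and 460.3 in DPI control and 34.2, 35.5 and 47.5 in DPI high light local leaves. Levels in the systemic leaf were 49.99, 43.03 and 42.1 in water control, 16.5, 19.4 and 13.2 in water high light, 35.8, 59.5 and 48.8 in DPI control and 45.8, 29.5 and 26.4 in DPI high light plants. ARD3 fell with light under water (log2 difference of -1.42 ± 0.20 SE, adjusted p = 1.07e-06), and its positive interaction (log2 difference of 0.92 ± 0.29 SE, adjusted p = 0.0452) was lost without 8 of the 12 libraries in turn (all but water high light replicate 2, DPI control replicate 2 and DPI high light replicates 2 and 3), with an adjusted p of up to 0.204.

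TAT3, a tyrosine aminotransferase gene that responds to jasmonate, was the only member called higher with light under DPI. It was at 133, 106 and 122 in water control, 357, 404 and 401 in water high light, 1076, 1117 and 1064 in DPI control and 248, 278 and 239 in DPI high light local leaves. Its systemic levels were 149, 141 and 159 in water control, 261, 184 and 203 in water high light, 367, 423 and 358 in DPI control and 502, 492 and 514 in DPI high light, and the groups did not overlap. TAT3 rose with DPI (log2 difference of 1.35 ± 0.09 SE, adjusted p = 3.03e-15), with light under DPI (log2 difference of 0.40 ± 0.09 SE, adjusted p = 0.00214) and with light under water (log2 difference of 0.51 ± 0.09 SE, adjusted p = 8.72e-05). Without DPI control replicate 1, another member was called higher with light under DPI, for 2 in all. SAG13, a dehydrogenase gene used as a marker of senescence, was at 37.3, 26.3 and 32.6 in water control, 79.8, 109 and 87.01 in water high light, 281, 277 and 339.9 in DPI control and 14.2, 10.8 and 10.102 in DPI high light local leaves. The systemic leaf held it at 37.8, 65.1 and 72.8 in water control, 85.8, 87.3 and 100.3 in water high light, 71.5, 135 and 133 in DPI control and 56.7, 38.3 and 58.4 in DPI high light plants. It rose with DPI by 0.93 and fell by 1.10 with light under DPI, with an interaction of -1.78. Its rise of 0.68 with light under water was lost without water control replicate 1 or any water high light replicate.

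The other enzymes of the group had fewer calls. MSRB9, a methionine sulfoxide reductase gene, and SDR3 rose with DPI, by 0.85 and 0.65, and fell with light under DPI, by 0.83 and by 0.58. The call of MSRB9 was lost without water control replicate 2 or DPI control replicate 1 for DPI and without any library but DPI control replicate 2 for light, and that of SDR3 for light without DPI control replicate 3. MDHAR, a monodehydroascorbate reductase gene, and LUP5, a triterpene synthase gene, rose with DPI, by 1.13 and 0.85, calls that were lost without water control replicate 2 or DPI control replicate 1 for MDHAR and without water control replicate 1 or DPI control replicate 2 for LUP5. MDHAR also rose by 1.16 with light under water, a call lost without water control replicate 2 or 3 or water high light replicate 1 or 3. The thioredoxin family gene AT5G38900 fell with light under DPI by 1.79, and its local fall was at least 24-fold. MSRB8 and the glycosyltransferase gene UGT73D1 passed no systemic test.

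The 11 genes of transporters, channels and sorting receptors had few systemic calls, for ABCG40 and VSR6. Of the 11, 1 rose with DPI and 2 fell with light under DPI, where 20.7% and 4.56% of all tested genes did so. ABCG40 is an importer of abscisic acid. It was at 40.3, 48.8 and 33.4 in water control, 64.5, 85.3 and 87.95 in water high light, 269, 354 and 359 in DPI control and 42.7, 40.9 and 29.3 in DPI high light local leaves. Systemic levels were 72.2, 55.2 and 54.1 in water control, 70.4, 51.7 and 74.96 in water high light, 125, 163 and 151 in DPI control and 40.8, 44.8 and 44.8 in DPI high light, with DPI control above and DPI high light below all other systemic libraries. ABCG40 rose with DPI (log2 difference of 1.26 ± 0.18 SE, adjusted p = 1.62e-07) and fell with light under DPI (log2 difference of -1.72 ± 0.18 SE, adjusted p = 6.2e-10), and the interaction was negative (log2 difference of -1.83 ± 0.25 SE, adjusted p = 9.71e-07). VSR6, a vacuolar sorting receptor gene, fell with light under DPI by 0.40, a call lost without DPI control replicate 1 or DPI high light replicate 2. No systemic call was made for the amino acid transporter genes AAT1 and LHT7, the peptide transporter gene PTR3, the mitochondrial phosphate carrier gene PHT3;2, the glucose 6-phosphate translocator gene GPT2, GLR2.5 and ATGLR1.2 (glutamate receptor-like channels), VSR5 or the MATE efflux gene AT2G04070. Of these, PHT3;2 and GLR2.5 were under the floor in water control local leaves, and DPI control was at least 8.92-fold and 11.6-fold higher.

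The last 17 genes code for ATPases, chaperones, calcium-related and other products, and 7 rose with DPI in the systemic leaf and 5 fell with light under DPI. BIP3, an endoplasmic reticulum chaperone gene, rose with DPI by 0.89 and fell with light under water by 0.75, the latter lost without water control replicate 1 or 3 or water high light replicate 2 or 3. AIG1, named for its induction by avrRpt2, rose locally from 118, 105 and 96.1 in water control to 959.6, 1091 and 1168 in DPI control. In the systemic leaf AIG1 fell with light under DPI, by 1.05, and under water, by 0.92. AT3G28580, which codes for an ATPase of the AAA type, the ankyrin gene AT3G13950, AT1G13470 and the non-coding RNA gene AT3G15536 rose with DPI, by 0.99, 0.89, 0.47 and 0.72. They fell with light under DPI, by 1.73, 1.56, 0.39 and 1.03. Of these calls, those with DPI were lost for AT3G28580 without water control replicate 1 or DPI control replicate 2 and for AT3G13950 without any library but water control replicate 2, and that with light for AT1G13470 without DPI control replicate 2 or DPI high light replicate 1 or 3. BAP2 and the ankyrin repeat gene AT4G14390 rose with DPI, by 1.41 and 1.40, calls lost without any library but water control replicate 3 and without water control replicate 3 or DPI control replicate 2. No systemic call was made for AATP1 and AT3G28510 (further ATPases), CML41 (a calmodulin-like protein), the transcription factor gene NAC042, AT4G00700 (a C2 domain protein), AT3G51440, AT5G24200, AT5G51465 or the non-coding RNA gene AT5G24206.

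**Figure D5:**
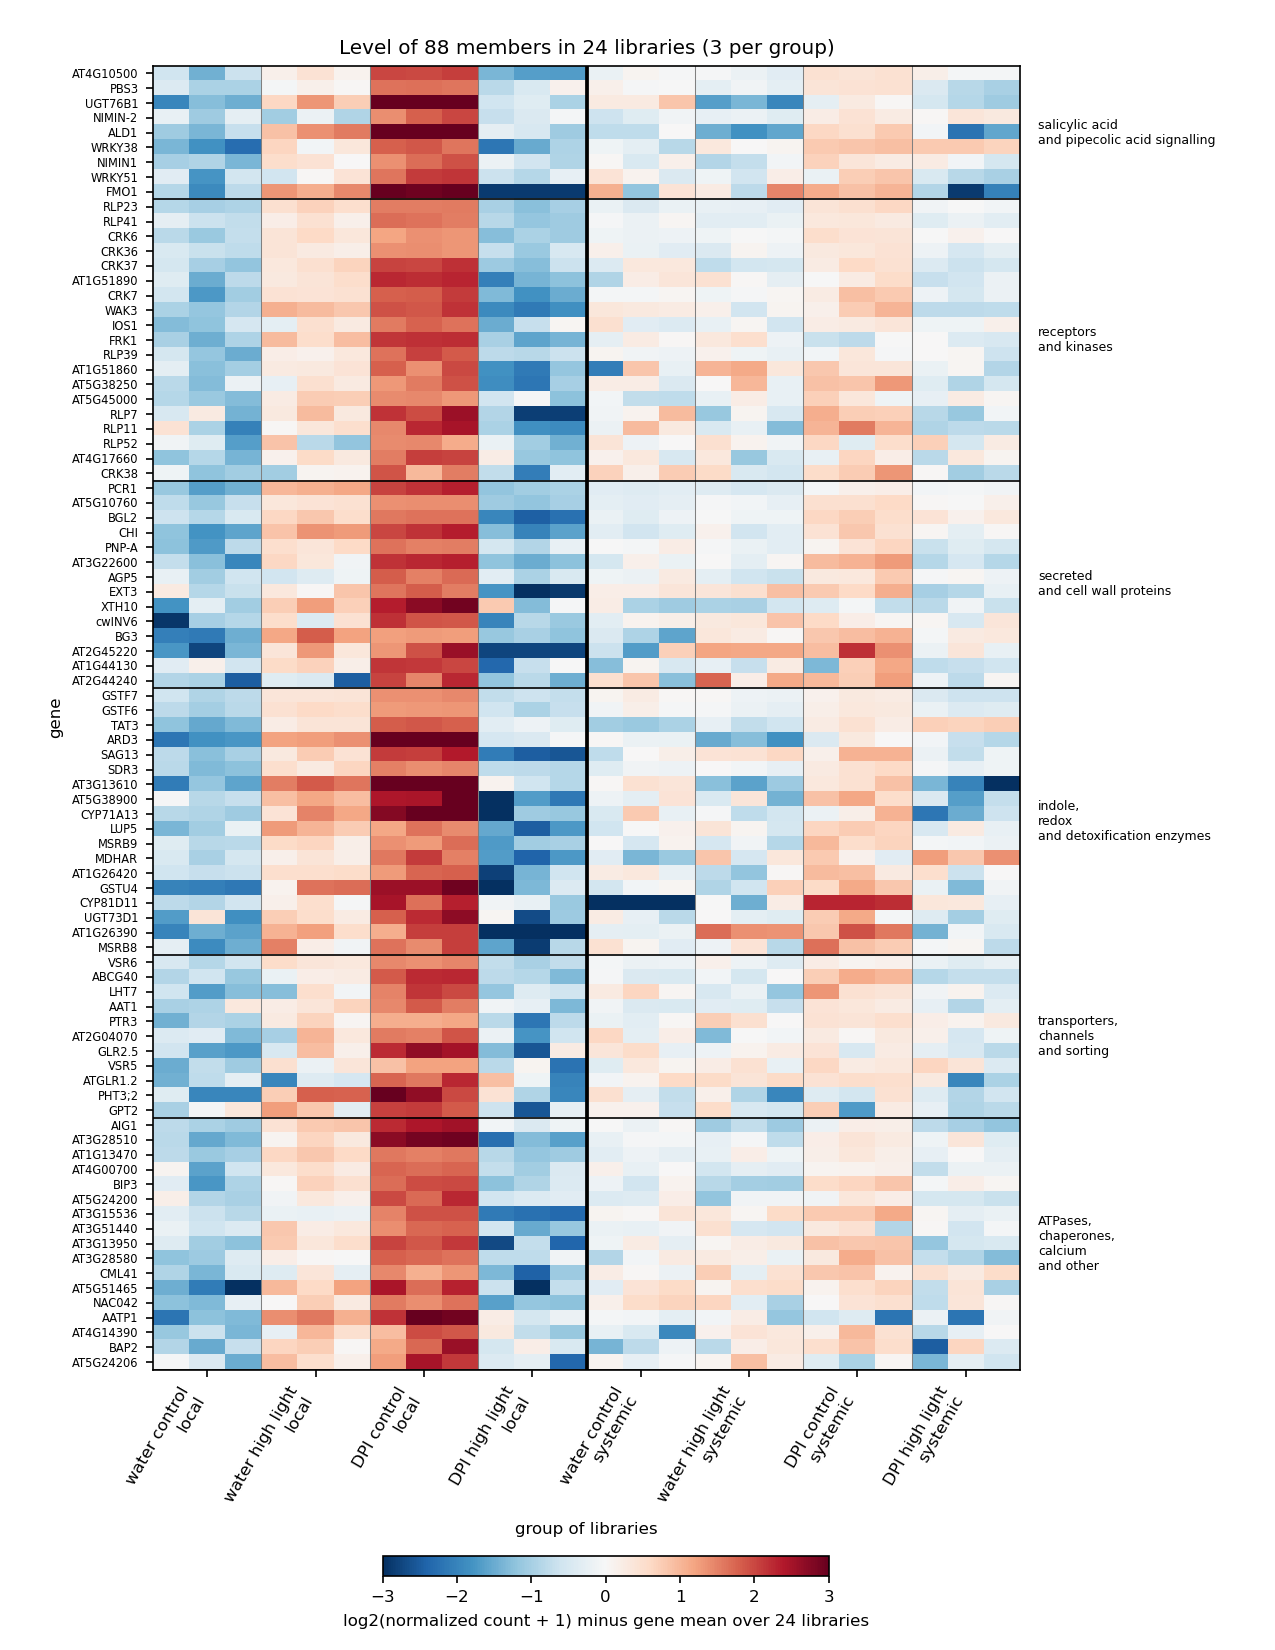
Log2(normalized count + 1) of the 88 members (rows, by role) in the 24 libraries (columns, 3 for each group), each gene minus its mean over all libraries, with red for higher and blue for lower. All 3 DPI control local libraries lie above the gene's mean for each of the 88 members. The rule asks for high levels there, so that nothing is read from this.

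The contrast between the leaves of the same treatment is given last. In DPI control plants the local level was above the systemic level in all 3 libraries against all 3 for 80 of the 88 genes and below it for 0, where 13% of all tested genes lay above and 10.3% below, with a median log2 difference of 1.29 (range -0.11 to 3.80). Since the rule asks for high levels in DPI control local leaves, this is a description and not a result about the members. In water control plants, all 3 local libraries lay below all 3 systemic libraries for 54 members and above for CYP81D11, where 8.68% of all tested genes lay below and 8.21% above. The median was -0.87, and the rule prefers genes that are low there, so that this too is a description.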

How the data were processed

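RNA was sequenced from 24 libraries, 3 in each of 8 groups. According to the submitters' processing notes, reads were handled with FastQC 0.11.7, STAR 2.4.0.1 and DESeq2 1.20.0 on TAIR10. The values that the authors deposited are a signal: read counts per gene divided by DESeq2 size factors. All values (100%) came out as whole reads within 0.001 after multiplication by a step per library, and edgeR and DESeq2 were run on these recovered reads as alternatives. The library kit keeps strand and reads were mapped with the aligner's default settings, which let a read map to several places. How the counting step treated such reads and strand is not given in the sources used here.

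Values were tested as log2(value + 1) with limma 3.58.1 (R 4.3.3, trend, all 24 libraries, group means) over the 18314 of 32833 genes with at least 10 normalized counts in at least 3 libraries, two-sided, with Benjamini-Hochberg adjustment over all of them and a threshold of 0.05. Tests are given for the systemic leaf, since the rule used the local leaf. The local calls counted for non-members of the salicylic acid list are a description. Fold changes of low genes are understated on this scale. Lower bounds of folds set a group under 3 reads in each library at that floor.

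The members, the gene lists (salicylic acid and systemic acquired resistance, camalexin, detoxification, jasmonate and ethylene defence, abscisic acid with cold and lipid transfer, starvation and senescence) and the markers were chosen with earlier results of these data known, and the grouping by role was made after the values were seen. Values of every library are given for members of the lists, the 5 members with the highest mean in DPI control local leaves, and the 3 largest rises and 3 largest falls among the called members of each systemic comparison. FRK1 was added after its values were seen. Of the genes on a list that are not members, up to 3 with the largest called systemic difference with DPI are named. Other members are given by counts and examples. Alternatives were edgeR 4.0.16, DESeq2 1.42.0, pseudocounts of 0.5 and 5, other filters, TMM scaling, a replicate block, fits on fewer groups and leaving out each library. The limma test of DPI against water in control systemic leaves was checked on simulated data.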

Additional observations from a re-analysis of the deposited data

Results flagged for a closer look

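In the systemic leaf the response to light differed between the drops, by a test of the drop by light interaction (limma, adjusted p under 0.05), for 26 members with a more negative and 2 members with a more positive response under DPI than under water. Of all tested genes, 4.08% were called more negative and 2.32% more positive. The 2 positive calls among the 88 members are near that share and are no trait of the members. The positive interactions were those of UGT76B1 (1.28 on the log2 scale) and ARD3 (0.92), both of which fell with light under water. The interaction of ARD3 was lost in 13 of 21 alternatives (adjusted p up to 0.204) and that of UGT76B1 in 6 of 21 (up to 0.0958). The most negative were those of CYP81D11 (-4.83), AT1G26390 (-3.78) and AT2G45220 (-3.22), each of which rose with light under water and fell with light under DPI. The rise of AT2G45220 was not called with only the groups in the contrast, with edgeR or with DESeq2 (adjusted p of 0.0563, 0.0907 and 0.104), nor without any of 5 of its 6 libraries (up to 0.215). CYP81D11 was at 0 in all 3 water control systemic libraries, so that its fitted value depends on the pseudocount. No explanation of these differences was tested.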

How the results depend on the processing

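Of the 36 higher with DPI, 40 lower with light under DPI and 26 with a negative interaction, 21, 24 and 15 members were called where only genes with a mean of at least 50 normalized counts were tested, since fewer members then enter the test. The count higher with light under DPI was 2 in place of 1 with a pseudocount of 5, with a replicate block, with only the groups in the contrast, and with edgeR and DESeq2. The count higher with light under water was 5 with no filter, 2 with a mean of at least 50, 4 with only the groups in the contrast and 5 with DESeq2, in place of 8. The count with a positive interaction was 1 with a pseudocount of 5, with only the groups in the contrast and with edgeR, and 0 with no filter and with DESeq2, in place of 2. Apart from the filter on means, the cause of these changes was not tested. Leaving out 1 library gave 81 to 89 genes by the rule, 26 to 33 higher and 0 to 0 lower with DPI, 1 to 2 higher and 32 to 40 lower with light under DPI, 4 to 6 higher and 5 to 6 lower with light under water, and 0 to 2 positive and 19 to 25 negative interactions. Where a library leaves the fit, its group keeps 2 samples and the spread is pooled over all groups. edgeR called 43 higher with DPI and 50 lower with light under DPI, and DESeq2 37 and 46. Replicate numbers were not used as pairs, since no label says that a number marks a shared batch and same-numbered systemic libraries had correlations of deviations of -0.0085 to 0.048 over 18 pairs. The experiment was repeated, so that numbers may still mark its repeats. In 15 of the 18 the correlation was best with their own number, a hint of such pairing. The replicate block gave 39 higher with DPI, 45 lower with light under DPI and 27 negative interactions. No member called in a systemic comparison changed sign in the alternatives run that gave it a value. Depth limits low genes such as AT2G44240 and AATP1, with groups under the floor of 3 reads.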
